A study of Drosophila melanogaster with 19 samples.

Results

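The Attacin genes AttA, AttB, AttC and AttD of Drosophila melanogaster were followed across flies that overexpressed 1 of 2 POU transcription factor transcripts in immune-competent tissues. Members were chosen by gene symbol, 4 of 1018 genes that carry one here, and 6 of 32162 array probes belonged to them: A_09_P029506, A_09_P177575 and A_09_P205050 for AttA, A_09_P064286 for AttB, A_09_P064281 for AttC and A_09_P076236 for AttD. All 6 probes passed the signal threshold of every comparison, a mean of 130 in at least 1 compared group. AttD did so in c564>nub-RB rest, c564>Pdm2-RB rest and c564>+ gut through 1 array of the group, without which it was not tested against c564>+ rest. The 3 AttA probes report on the same gene and are not independent of each other.

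Attacins are glycine-rich antimicrobial peptides that act mainly against Gram-negative bacteria. In the fly they are produced by the fat body after infection and by parts of the gut epithelium. Their transcription is a classical readout of the IMD pathway, in which peptidoglycan recognition receptors signal to the NF-kappaB factor Relish. AttA, AttB and AttC encode peptides with a secretion signal, whereas AttD lacks one and is thought to stay inside the cell. AttA and AttB are neighbouring genes on chromosome arm 2R in the RefSeq annotation, with Drosocin (Dro), another antimicrobial peptide gene, on the other side of AttA. AttC is elsewhere on 2R and AttD is on 3R. AttA and AttB are nearly identical in coding sequence, and how far their probes detect each other's transcript was not tested, since probe sequences were not used here.

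RNA was measured on 19 one-color Agilent arrays, 1 pool of dissected females per array, at an age of 10 days and with adults kept at 25 °C. Flies of c564>nub-RB (c564-Gal4 with UAS-nubRB) gave 4 arrays of rest and 3 of gut, flies of c564>Pdm2-RB (c564-Gal4 with UAS-Pdm2RB) gave 3 of each, and c564>+ controls, labelled w1118, gave 3 of each. Rest is the fly without its gut and head. All groups carried the c564-Gal4 driver, which is active in fat body, midgut and some other tissues. The controls had the driver and no UAS transgene, so carrying a transgene and expressing its product cannot be told apart. The same control arrays served both overexpression genotypes.

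The median processed signal of an array ranged between 54.94 and 413.8, and 65.17 to 83.83% of probes were well above background. No spot was saturated. Arrays of a group correlated at 0.935 to 0.9833 over log2 signals. Arrays were on 6 slides, scanned on 2 dates, called scan batches here. The 9 named gut markers (trypsins and Jonah proteases) had a summed signal of 2245138 to 2773949 on the gut arrays and of 2936 to 711434 on the rest arrays, so that gut transcripts were also measured in rest. The labels do not say whether samples with the same number share flies. In bulk tissue, more expressing cells and more RNA per cell cannot be told apart.

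In the rest of c564>nub-RB flies, AttA, AttB and AttC were 99.2- to 132-fold above the controls. AttA probe A_09_P029506 read 48305, 153289, 32117 and 46849 in c564>nub-RB rest, against 412, 719.8 and 667 in c564>+ rest. AttB read 29511, 62392, 11548 and 12765 in c564>nub-RB rest, against 144, 274 and 304 in c564>+ rest. For both genes the lowest overexpression array was far above the highest control array. AttC read 67072, 159206, 36596 and 47013 in c564>nub-RB rest, against 483, 530.1 and 472 in c564>+ rest. AttD, the Attacin without a secretion signal, read 106.6, 562, 48.6 and 125 in c564>nub-RB rest, against 10.0, 6.22 and 10.8 in c564>+ rest. The AttD signal was well above background on 2 of the 3 control arrays. Array 2 was highest and array 3 lowest of the c564>nub-RB rest arrays for all 6 probes.

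**Figure D1:**
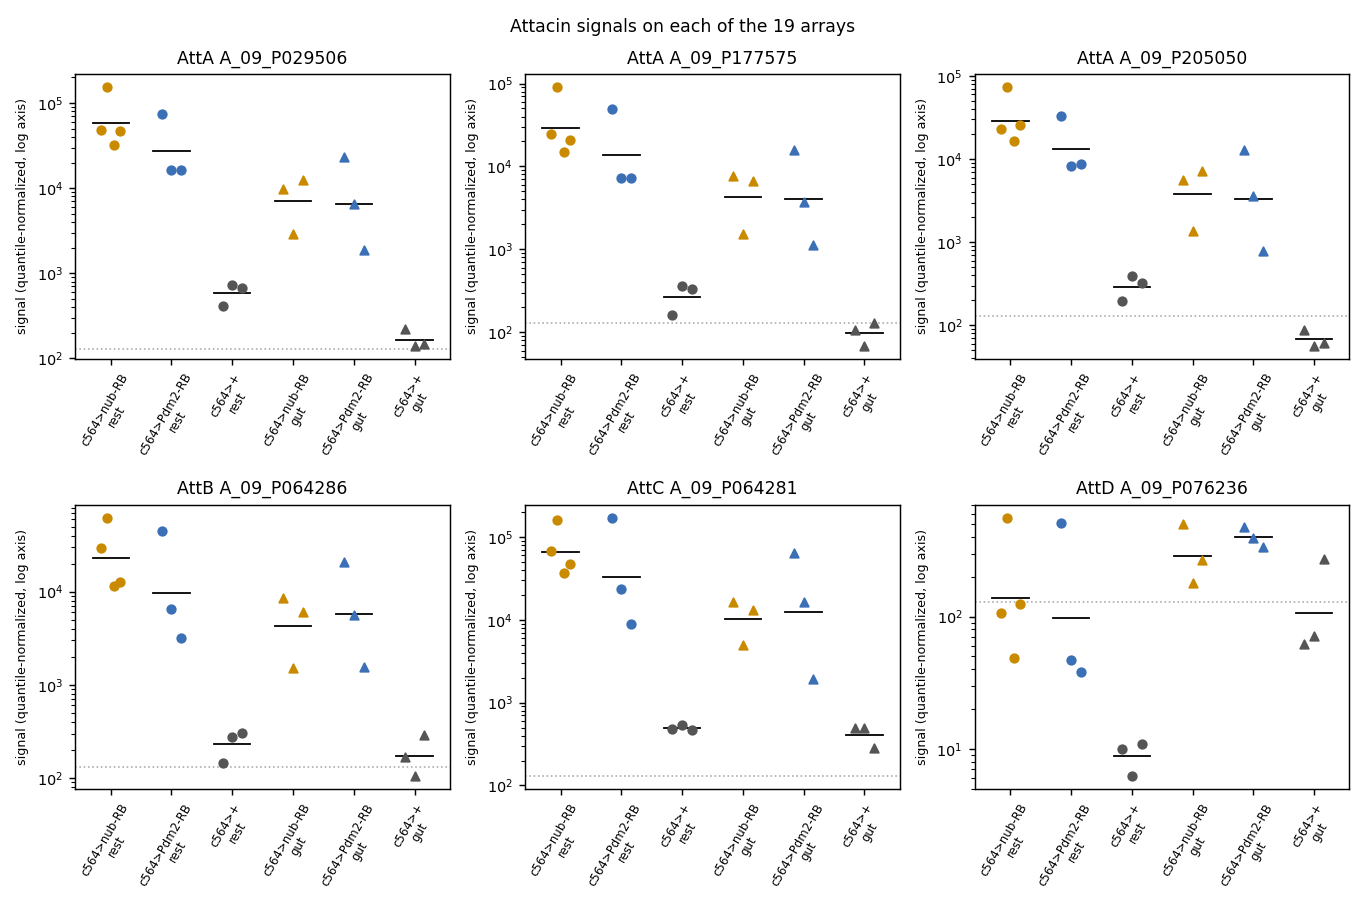
Quantile-normalized signal (log axis) of the 6 Attacin probes on each array, 1 panel per probe. Points are arrays (circles rest, triangles gut), bars are geometric means and the dotted line is the signal threshold of 130. AttD in c564>+ rest lies between 6.22 and 10.8, below every other AttD group.

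The log2 difference between c564>nub-RB and c564>+ rest was 6.63 ± 0.52 (SE), 6.76 ± 0.62 and 6.64 ± 0.51 for the 3 AttA probes, which is a fold of 99.2, 108 and 99.8. AttB differed by 6.64 ± 0.61 and AttC by 7.05 ± 0.46, folds of 99.5 and 132. These 5 of 6 probes rose at a false discovery rate of 1%, with limma adjusted p-values of 0.000334 to 0.0012. Among all 16491 probes tested, 3.40% were called higher. AttC ranked at 13 from the top by size of difference and the AttA and AttB probes at 16 to 24. AttD differed by 3.98 ± 0.75 with an adjusted p of 0.0168, which missed 1% but not 5%, a limit that 13.7% of all probes passed. AttD had passed the signal threshold only through c564>nub-RB rest, where it is high, and its adjusted p was 0.0363 with no threshold. The size of its difference depended on the background step and was 1.25 (adjusted p 0.0889) with normexp correction. The groups did not overlap for 6 of 6 probes, where 14.9% of all tested probes were apart in this direction. AttD, tested only through the group where it is high, adds no support to this count. Within scan batch 1 (1 array against 1) the differences were 5.70 to 8.40, and within batch 2 (3 against 2) they were 3.45 to 6.59.

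Markers of other cell types moved with this comparison. Of 10 listed hemocyte markers 7 carried a symbol, including Hml, NimC1 and the prophenoloxidases PPO1 and PPO2. In c564>nub-RB rest 7 of these 7 were called higher, beside 3.40% of all probes. Symbols came mostly from lists of changed genes, so this count cannot be weighed against that share. The summed signal of the 7 was 34660 to 54096 in c564>nub-RB rest and 4975 to 10209 in c564>+ rest. The gut markers summed to 2936 to 361987 in c564>nub-RB rest and 347829 to 711434 in c564>+ rest. Of the 2 named fat body markers, Lsp2 differed by 4.61 ± 1.11 (adjusted p 0.0369), and the sum of both was 778 to 17911 in c564>nub-RB rest and 84.1 to 388 in c564>+ rest. Their part in the Attacin differences was not tested.

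In the rest of c564>Pdm2-RB flies the Attacins were also above the controls, with more spread. AttA probe A_09_P029506 read 74305, 16412 and 16257 in c564>Pdm2-RB rest, AttB read 44464, 6454 and 3143, and AttC read 171228, 23697 and 8795, against the control values above. AttD read 509.9, 47.0 and 38.2. Array 1 was highest for all 6 probes and was also the brightest array of its group before normalization. No array of c564>Pdm2-RB rest overlapped the controls for any of the 6 probes, where 13.7% of tested probes were apart in this direction. AttD had passed the signal threshold only through array 1 of c564>Pdm2-RB rest, the group where it is high, so AttD adds no support to this count.

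The difference from c564>+ rest was 5.54 ± 0.62 for A_09_P029506, 5.69 ± 0.79 for A_09_P177575 and 5.52 ± 0.58 for A_09_P205050, the AttA probes. It was 5.40 ± 0.95 for AttB and 6.06 ± 1.01 for AttC. Without c564>Pdm2-RB rest array 1 these were 4.30 and 4.87, and without array 4 they were 6.21 and 7.01. AttA rose on 2 of its 3 probes at 1% (adjusted p of 0.00965 and 0.00787), and 0.511% of tested probes were called higher. A_09_P177575, AttB and AttC had adjusted p-values of 0.0202, 0.0426 and 0.0366, and AttD, at 3.47 ± 0.98, had 0.142. With normexp correction the AttD difference was 1.05. At 5%, 5 probes were called, against 2.95% of all probes. The call rested on few arrays: it went to 4 probes without c564>Pdm2-RB rest array 1 and to 0 without any 1 of the other 5 arrays. It was also 0 with slide, scan batch or replicate number as a fixed block. Within scan batch 1 (2 against 1) the differences were 3.84 to 7.08 and within batch 2 (1 against 2) they were 2.27 to 4.97. Hemocyte markers summed to 13587 to 22891 in c564>Pdm2-RB rest and 4975 to 10209 in c564>+ rest, and gut markers to 3104 to 74757 in c564>Pdm2-RB rest and 347829 to 711434 in c564>+ rest. None of 6 tested hemocyte markers was called in limma and 5 had an unadjusted p under 0.05, as had 2891 of all 16454 tested probes. The part of these markers was not tested.

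**Figure D2:**
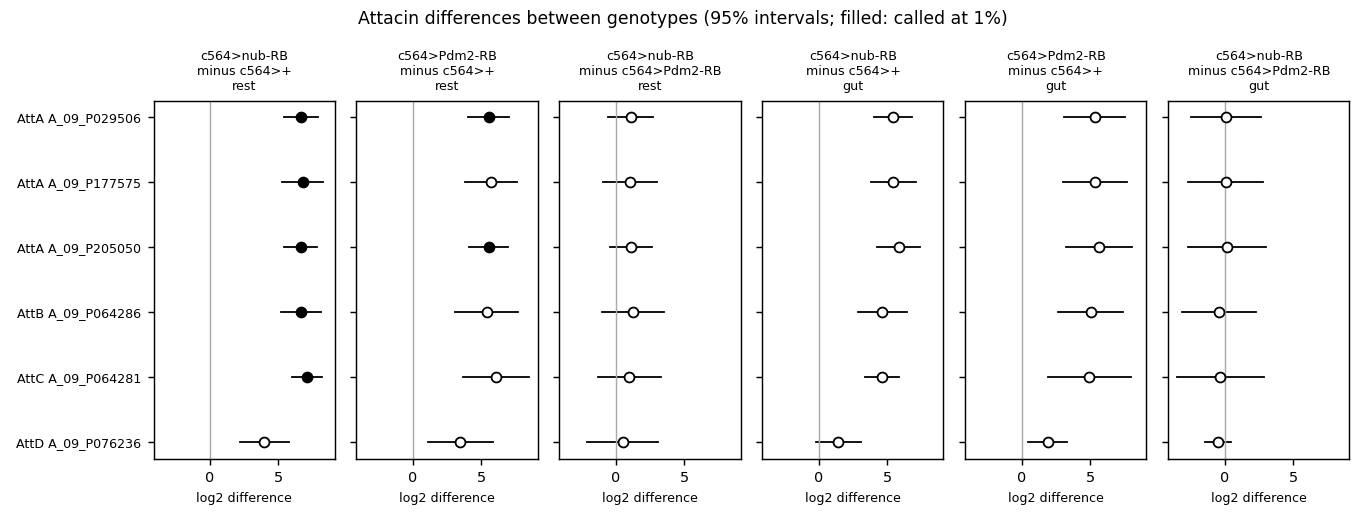
Log2 difference of each Attacin probe in 6 comparisons of genotypes, as named above each panel, with 95% intervals. Filled points were called at 1%. All intervals of c564>nub-RB minus c564>Pdm2-RB include 0.

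In rest, no Attacin difference between the overexpression genotypes passed the test. c564>nub-RB was 0.51 to 1.24 higher on the log2 scale across the 6 probes than c564>Pdm2-RB. Within scan batch 1 (1 against 2) it was 1.32 to 2.25 higher, and within batch 2 (3 against 1) 1.18 to 2.47 higher. The genotypes were unevenly spread over the batches, so genotype and scan batch are partly confounded here. The AttC difference was 0.99 with a 95% interval of -1.30 to 3.28, and the AttB difference was 1.24 with -1.01 to 3.49. None of the 6 probes was called at 1% or had an unadjusted p under 0.05, where 0.990% of all probes were called, and the groups overlapped for every probe, where 22.4% of all probes were apart. The intervals leave room for differences of several-fold either way.

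In the gut, AttA, AttB and AttC were also higher in c564>nub-RB than in controls, by 24.8- to 56.6-fold. AttA probe A_09_P029506 read 9758, 2929 and 12468 in c564>nub-RB gut, against 222, 141 and 147 in c564>+ gut. AttB read 8526, 1512 and 5999 in c564>nub-RB gut, against 167, 105 and 288 in c564>+ gut. AttC read 16402, 4998 and 13037 in c564>nub-RB gut, against 498, 496 and 279.6 in c564>+ gut. Groups did not overlap for these 5 probes of 3 genes, where 14.3% of all probes were apart in this direction. AttA probes A_09_P177575 and A_09_P205050 had means of 101 and 68.8 in c564>+ gut. They passed the signal threshold only through c564>nub-RB gut, where they are high, so they add no support to this count. Array 3 was the lowest of the c564>nub-RB gut arrays for every probe. AttD read 501, 179 and 269 in c564>nub-RB gut, against 61.9, 71.9 and 275 in c564>+ gut, and here the groups overlapped.

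The differences were 5.41 ± 0.57, 5.45 ± 0.66 and 5.82 ± 0.65 for AttA, 4.63 ± 0.72 for AttB, 4.64 ± 0.50 for AttC and 1.43 ± 0.67 for AttD. None was called at 1% in limma, against 0.497% of all probes called, but 5 of 6 were called at 5%, against 2.10% of all probes. An unadjusted p under 0.05 was found for 5, and for 3059 of all 16698 tested probes. A_09_P177575 and A_09_P205050, tested only through c564>nub-RB gut, are in these counts and add no support to them. Adjusted p-values ran between 0.0133 and 0.0402 for AttA, AttB and AttC, and the AttD value was 0.328. Without c564>nub-RB gut array 3, 3 probes (all of AttA) were called at 1%, A_09_P177575 and A_09_P205050 among them. Within scan batch 1 (3 against 2) the differences were 1.04 to 6.01, and batch 2 held no c564>nub-RB gut array. Hemocyte markers summed to 4817 to 10115 in c564>nub-RB gut and 7651 to 11822 in c564>+ gut, so that these ranges overlapped.

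In c564>Pdm2-RB gut the differences from controls were of similar size with a wider spread. AttA probe A_09_P029506 read 23533, 6475 and 1875 in c564>Pdm2-RB gut, AttB read 20824, 5629 and 1568, AttC read 63248, 16458 and 1912, and AttD read 475, 397 and 339. Array 1 was highest and array 4 lowest for all 6 probes. The 1 named head marker, Arr1, read 19054, 189 and 95.1 on these arrays (1, 2 and 4), against 478 to 22428 in c564>+ gut. Hemocyte markers summed to 6300 to 15098 in c564>Pdm2-RB gut and 7651 to 11822 in c564>+ gut, and the part of these markers was not tested. All 6 probes were apart from the control gut arrays, where 12.3% of all probes were. AttA probes A_09_P177575 and A_09_P205050 passed the signal threshold only through c564>Pdm2-RB gut, where they are high. They add no support to the counts of this comparison. The differences were 5.31 ± 0.89, 5.36 ± 0.95 and 5.62 ± 0.98 for AttA, 5.05 ± 0.96 for AttB, 4.94 ± 1.24 for AttC and 1.90 ± 0.59 for AttD. None was called at 1% or at 5% in limma, with adjusted p-values of 0.0517 to 0.19, where 0.344% of all probes were called at 1% and 2.03% at 5%. An unadjusted p under 0.05 was found for 6 of 6, and for 2856 of all 16566 tested probes. Within scan batch 1 (1 against 2) the differences were 1.27 to 3.74 and within batch 2 (2 against 1) they were 2.81 to 6.27. c564>nub-RB minus c564>Pdm2-RB gut gave -0.47 to 0.20, with an AttC interval of -3.49 to 2.89. There was no call or unadjusted p under 0.05 among the 6 probes (0.339% of all probes were called). The groups overlapped for every probe (18.1% of all probes were apart). Within scan batch 1 (3 against 1) this difference was 1.92, 1.94 and 2.28 for AttA, 1.44 for AttB, 2.42 for AttC and -0.23 for AttD. Batch 2 held no c564>nub-RB gut array, so genotype and scan batch are partly confounded here.

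**Figure D3:**
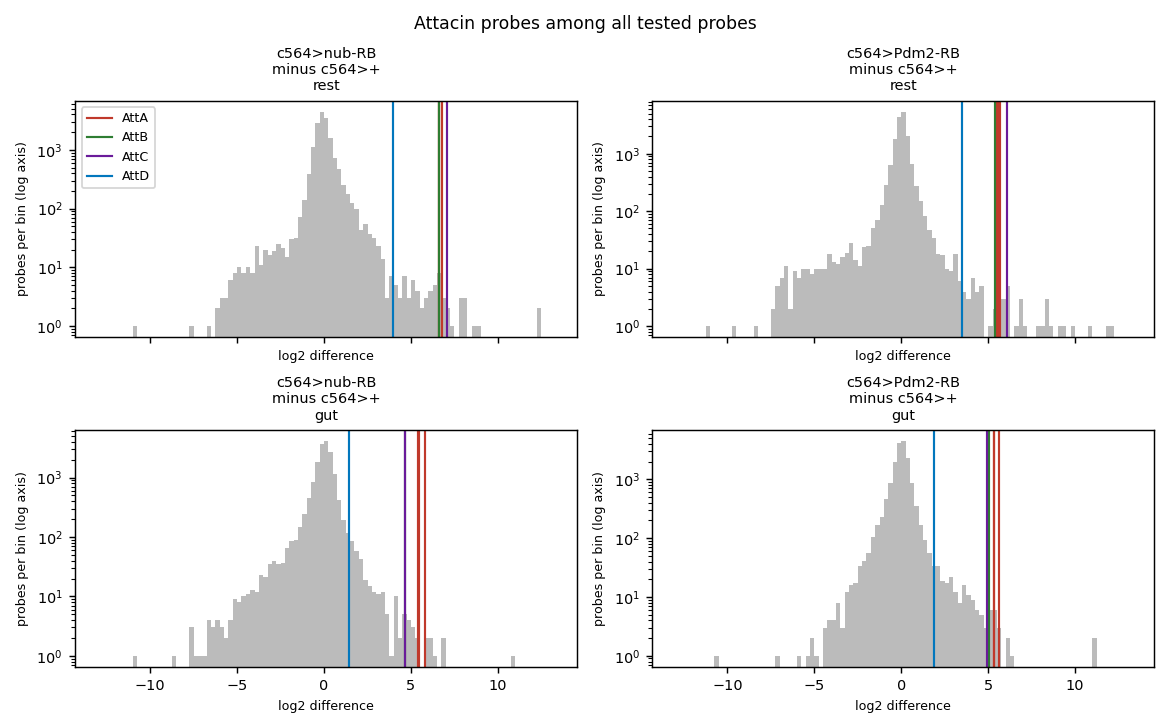
Number of tested probes (log axis) by log2 difference from c564>+ in bins of 0.25, for both genotypes and tissues. Vertical lines are the Attacin probes, with AttD nearest to 0 in each panel and the others at 4.63 or above.

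Mean signals of AttA, AttB and AttC were lower, and those of AttD higher, in gut than in rest in each genotype, with sign changes under some alternatives given here and in the closing section, and only some differences passed the test. In c564>nub-RB the gut minus rest difference was -3.03 ± 0.67, -2.74 ± 0.78 and -2.93 ± 0.71 for AttA, -2.42 ± 0.79 for AttB and -2.68 ± 0.60 for AttC. A_09_P029506, A_09_P205050 and AttC were called lower in gut at 1% (adjusted p of 0.00526, 0.00778 and 0.00541). AttD was at 1.06 ± 0.80 (adjusted p 0.259), and at -0.96 with scan batch as a fixed block. Among all probes 35.7% were called lower in gut, so a call between tissues is common. Without rest array 1, rest array 4 or gut array 3 of c564>nub-RB, none of the 6 was called, nor was any with slide as a fixed block. In c564>Pdm2-RB the differences were -2.04 to -0.76 for AttA, AttB and AttC and 2.04 ± 0.99 for AttD, with none called against 60.8% of all probes, and no unadjusted p under 0.05. The direction differed between scan batches: within batch 1 (1 gut array against 2 of rest) AttA, AttB and AttC were at -5.06 to -3.43, whereas within batch 2 (2 against 1) AttB was at 1.78, AttC at 1.88 and AttA at -0.40, 0.08 and -0.35. AttD was at 1.13 in batch 1 and 3.51 in batch 2. For c564>nub-RB only batch 1 held both tissues (3 against 1), with -4.43 to -3.87 for AttA, AttB and AttC.

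In the c564>+ controls AttD was higher in gut, with 61.9, 71.9 and 275 in gut against 10.0, 6.22 and 10.8 in rest, a difference of 3.61 ± 0.61 (adjusted p 0.00245, and 0.00442 with no signal threshold). It was 0.97 with normexp correction (adjusted p 0.0293), which ended the call at 1%. AttD passed the threshold there only through gut array 4, and 1 of the 3 rest arrays was not well above background. Without rest array 3 the adjusted p was 0.0108. AttA was lower in control gut, by -1.81 ± 0.29, -1.44 ± 0.39 and -2.11 ± 0.31 for its probes, and the first and the third were called (adjusted p of 0.00193 and 0.00138). The second and the third AttA probe passed the signal threshold only through c564>+ rest, where they are high. AttB and AttC differed by -0.42 ± 0.45 and -0.27 ± 0.25, within their error. Within scan batches (2 gut arrays against 1 of rest, and 1 against 2) the AttD difference was 3.70 and 2.97, and those of the other probes were -2.45 to -0.34 and -1.65 to -0.02. Among all probes 36.1% were called lower and 23.4% higher in control gut. Scaling arrays to their 75th percentile in place of quantile normalization shifted the median of all probes by 0.226 to 0.322 in gut against rest, and under it the AttB and AttC differences of the controls turned to 0.26 and 0.25. The summed gut markers of c564>+ rest, in which AttD was lowest, were 347829 to 711434, above every c564>Pdm2-RB rest array and 3 of the 4 c564>nub-RB rest arrays.

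**Figure D4:**
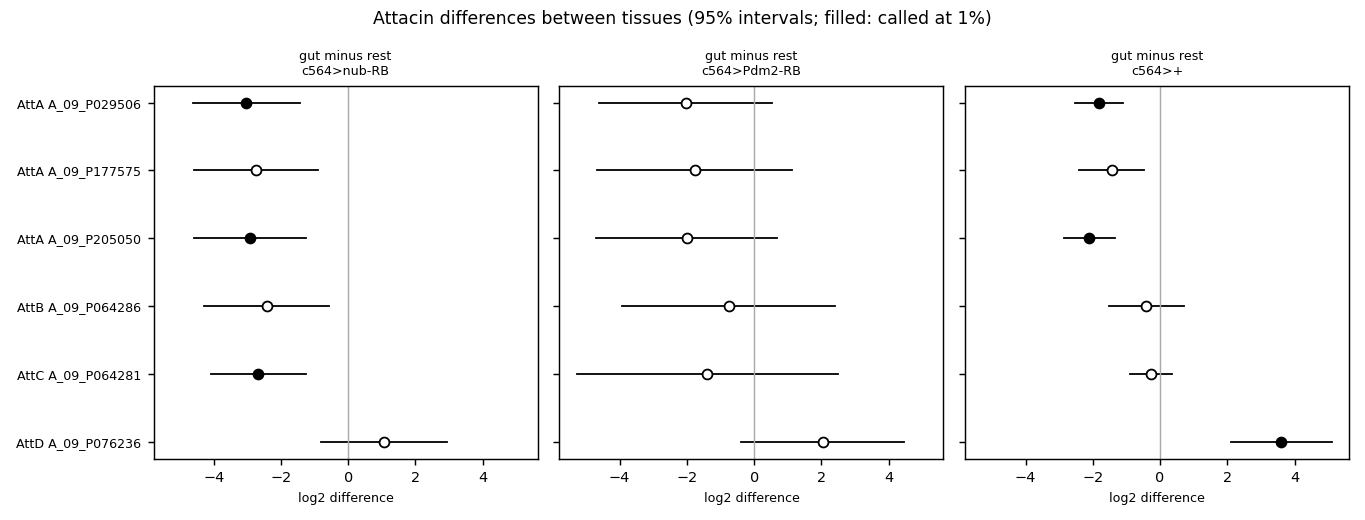
Gut minus rest log2 difference of each Attacin probe in the 3 genotypes, with 95% intervals; filled points were called at 1%. AttD lies above 0 in all 3 genotypes (1.06, 2.04 and 3.61) and the other probes below 0, except that AttB and AttC of c564>+ turn to 0.26 and 0.25 under 75th percentile scaling and AttD of c564>nub-RB to -0.96 with scan batch as a block.

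Whether overexpression acted differently in gut and rest was tested as an interaction. For c564>nub-RB the change in gut minus the change in rest was -2.41 ± 0.74 for AttC, -2.01 ± 1.03 for AttB, -2.54 ± 1.12 for AttD and -1.31 to -0.82 for the AttA probes. None was called (adjusted p of 0.0698 for AttC, and 0.176 to 0.59 for the others), against 0.824% of all probes. An unadjusted p under 0.05 was found for 2 of 6, and for 4772 of all 17952 tested probes. With normexp correction the AttD value was -0.40 (adjusted p 0.731 in limma). For c564>Pdm2-RB the interaction was -1.57 to 0.10, with no call or unadjusted p under 0.05, adjusted p-values of 0.686 to 0.983 and 0.195% of all probes called. No Attacin difference between the tissues in the size of the response was called at 1%. For c564>nub-RB the 95% interval was -4.04 to -0.78 for AttC and -5.01 to -0.08 for AttD, and those of AttA and AttB included 0.

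By mean log2 signal, AttA was ordered c564>nub-RB rest (15.82), c564>Pdm2-RB rest (14.72), c564>nub-RB gut (12.79), c564>Pdm2-RB gut (12.69), c564>+ rest (9.19) and c564>+ gut (7.38) at A_09_P029506. At this probe the overexpression genotypes overlapped within each tissue, and all other neighbours in the order were apart. At A_09_P177575, another AttA probe, c564>Pdm2-RB rest also overlapped c564>nub-RB gut. The share of all probes apart between these neighbours was not counted, so the order is a description. For AttB and AttC, c564>Pdm2-RB gut came before c564>nub-RB gut, and the 4 overexpression groups overlapped their neighbours in that order, as did the 2 control groups. AttD was ordered c564>Pdm2-RB gut (8.64), c564>nub-RB gut (8.17), c564>nub-RB rest (7.11), c564>+ gut (6.74), c564>Pdm2-RB rest (6.60) and c564>+ rest (3.13), and the last of these was apart from the others.

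Other antimicrobial peptide genes are given for comparison, with 9 of 10 listed genes named by the sources used. Symbols come mostly from lists of changed genes, so shares do not carry over to unnamed genes. In c564>nub-RB rest 5 of 8 tested genes rose, beside 3.40% of all probes, with a median difference of 6.30 against -0.05 over all probes. DptA, CecA1, CecA2 and CecC were below the signal threshold on every c564>+ rest array. They were tested only through c564>nub-RB rest, where they are high, and add no support to this count or median. The Diptericins DptA and DptB, which like the Attacins respond to the IMD pathway, differed by 8.86 ± 0.81 and 6.88 ± 0.72, the antifungal and antibacterial Metchnikowin (Mtk) by 6.74 ± 0.61, and CecA2, a Cecropin, by 6.38 ± 0.82. In c564>Pdm2-RB rest none of 8 was called at 1% in limma and 4 were at 5%, with a median of 5.01. An unadjusted p under 0.05 was found for 7, and for 2891 of all 16454 tested probes. DptA, CecA1, CecA2 and CecC were tested here only through c564>Pdm2-RB rest and add no support to these values. In gut none of 6 was called for c564>nub-RB (median 2.81, 4 with an unadjusted p under 0.05) and none of 8 for c564>Pdm2-RB (median 3.33, 5 with such a p). Of all tested probes, 3059 of 16698 and 2856 of 16566 had such a p in these comparisons. CecA1 was tested in gut only through the overexpression groups, and CecA2 and CecC only through c564>Pdm2-RB gut. These genes add no support to the gut counts and medians. The Toll-responsive Drosomycin gene Drs, named after its values were seen, differed by 3.81 ± 0.98 in c564>nub-RB rest (adjusted p 0.0453) and by 0.37 ± 1.15 in c564>Pdm2-RB rest, and in gut by 0.18 and 0.12. Drs already read 174207 to 238697 in c564>+ gut, against 1063 to 16480 in c564>+ rest. Whether the signal scale left room for a rise in gut was not tested.

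**Figure D5:**
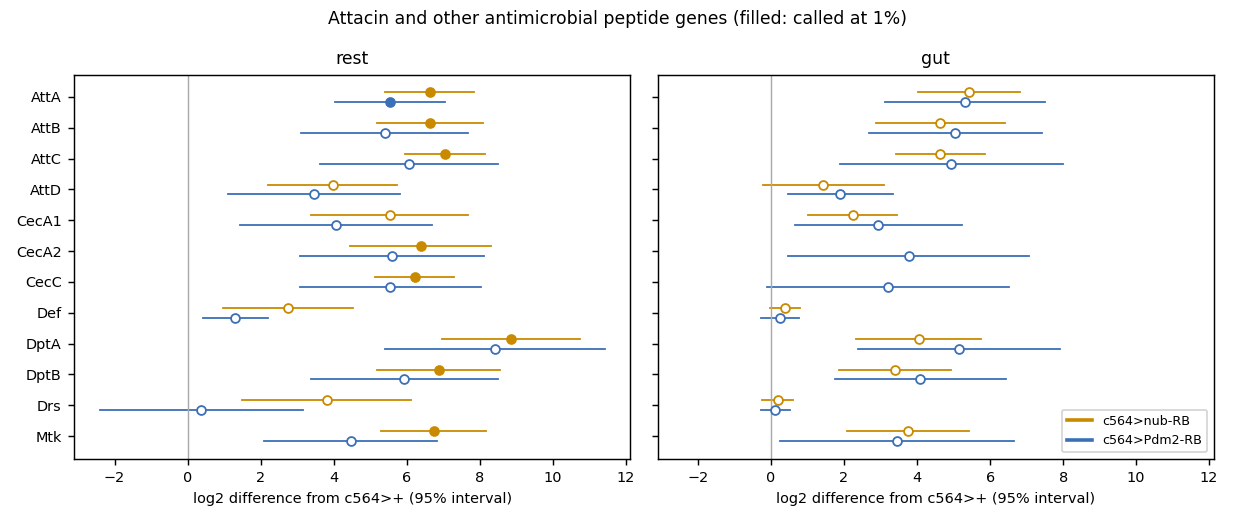
Log2 difference from c564>+ with 95% intervals for the Attacin genes (AttA by A_09_P029506) and other antimicrobial peptide genes, in rest and gut. Filled points were called at 1%; CecA2 and CecC of c564>nub-RB gut were below the signal threshold.

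Few regulators carried a symbol. Of 14 listed IMD receptor and signalling genes 1 was named, PGRP-SD, a secreted recognition protein, which rose in c564>nub-RB rest by 1.87 ± 0.23 (adjusted p 0.00324). Of 12 negative regulators 2 were named, and PGRP-SB1, an amidase, rose there by 4.67 ± 0.46. Of 14 Toll pathway genes 3 were named, and PGRP-SA and the protease gene SPE rose in c564>nub-RB rest by 1.71 ± 0.26 and 1.57 ± 0.20. In c564>Pdm2-RB rest none of the named genes was called at 1%. The differences there were 2.42 ± 0.31 for PGRP-SD (limma adjusted p 0.0145) and 3.19 ± 0.61 for PGRP-SB1. They were 0.74 ± 0.20 for PGRP-SA and 0.76 ± 0.17 for SPE. None of these 6 genes was called in the gut of either genotype in limma, and 2 had an unadjusted p under 0.05 in c564>nub-RB gut and 0 in c564>Pdm2-RB gut. Of all tested probes, 3059 of 16698 and 2856 of 16566 had such a p there. Rel and PGRP-LC were not analysed here.

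The probes most like each Attacin across arrays were sought among named probes, 817 in rest and 788 in gut, by Pearson correlation of log2 signals within a tissue. Over the 10 rest arrays AttA was closest to DptB (0.986), AttB to DptB (0.994), AttC to DptB and DptA (0.993) and AttD to PGRP-SB1 (0.965). Over the 9 gut arrays AttA was closest to CG32444 (0.966), AttB to DptB (0.986) and AttC to DptA (0.975), while AttD was closest to Ldh (0.895), lactate dehydrogenase. These points share genotype groups, libraries and normalization, and the values are a description.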

How the data were processed

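RNA of 19 samples was hybridized with Cy3 to 1-color Agilent arrays. The authors extracted intensities with Agilent Feature Extraction 10.7.3.1, and the deposited scanner files hold a background-subtracted processed signal (an intensity) per spot. The authors' value table, quantile-normalized in Partek, holds linear intensities and was deposited too. Here unmarked spots were averaged per probe, quantile-normalized over 19 arrays and log2-transformed (R 4.3.3, limma 3.58.1), and 99.92% of these log2 values differed by at most 0.01 from those of the authors' table. Probes with a mean signal above 130 in at least 1 compared group were tested with lmFit and eBayes on the compared arrays, with Benjamini-Hochberg adjustment over all tested probes at 1%. Precision is limited by the 3 or 4 arrays per group. Groups were taken from the sample labels. All comparisons and their alternatives (scaling, background correction, filters, fits, blocks, thresholds and each array left out) are in the closing section. The procedure was tested on simulated data. Symbols were assigned to 1386 of 32162 probes, from symbol lists that accompany the study and from RefSeq accessions. Named genes were all Attacin probes, called genes of the pathway lists (at most 4 per list and comparison) and the 3 most similar probes per gene. Members and lists were chosen with earlier results of these data known. Promoter motifs and sequences were not analysed here, and neither were Rel and PGRP-LC, which the rule listed and no symbol source named.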

Additional observations from a re-analysis of the deposited data

Results flagged for a closer look

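Within the 4 c564>nub-RB rest arrays, array 2 lay far from the others on the linear scale for 4 Attacin probes. The gap to the nearest array divided by the range of the group was 0.866 for AttA A_09_P029506, 0.87 for AttA A_09_P177575, 0.837 for AttA A_09_P205050 and 0.851 for AttD A_09_P076236, above Dixon's 95% critical value of 0.829 for 4 samples. Chance alone passes this limit in about 5% of groups where values are normally distributed, which was not tested for the linear signals. The AttA probes measure the same transcript. On the log2 scale used for the tests no probe passed it. Array 2 was the brightest of its group before normalization, with a median signal of 337.2, and without it 5 Attacin probes were still called in c564>nub-RB rest against c564>+ rest, while AttD fell below the signal threshold and was not tested.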

How the results depend on the processing

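Calls are numbers of the 6 Attacin probes at 1%. In c564>nub-RB rest against c564>+ rest the main count of 5 was 1 in the methods' t-test and stayed within 1.5 times in all other alternatives, with 5 to 5 when an array was left out. In c564>nub-RB gut the count of 0 became 3 with all 6 groups in 1 fit, 4 with slide as a random block, 3 with slide as a fixed block and 5 at 5%, with 0 to 3 when an array was left out. In c564>Pdm2-RB rest the count of 2 became 5 with all 6 groups in 1 fit, 5 with slide as a random block and 5 at 5%, and 0 with no signal threshold, the methods' t-test, slide or scan batch as a fixed block, and the replicate block, with 0 to 4 when an array was left out. In c564>Pdm2-RB gut the count of 0 became 4 with all 6 groups in 1 fit and with slide as a random block. For gut against rest, the count of 3 in c564>nub-RB became 0 in the methods' t-test and with slide as a fixed block and 5 at 5% (0 to 2 with an array left out), the count of 0 in c564>Pdm2-RB reached 1 with an array left out, and the count of 3 in c564>+ became 1 with all 6 groups in 1 fit, the methods' t-test and slide as a random or fixed block (2 to 4). The cause was not tested. No Attacin probe was called in the other comparisons under any alternative.

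The replicate number did not pair the arrays: of 24 pairs of arrays with the same number, the correlations of deviations ran between -0.46 and 0.66 and 7 were over 0.1. With the replicate block the count was 4 in c564>nub-RB rest and 0 in c564>Pdm2-RB rest, and in the other comparisons it stayed within 1.5 times.

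All sign changes were in differences that were not called. AttB and AttC in c564>nub-RB gut minus c564>Pdm2-RB gut became 1.44 and 2.42 with scan batch as a fixed block and 0.32 and 0.41 with the replicate block. AttD in c564>nub-RB gut minus rest became -0.96 with scan batch as a fixed block, and AttB and AttC in c564>+ gut minus rest became 0.26 and 0.25 with 75th percentile scaling. The interaction of c564>Pdm2-RB turned to -0.40, -0.80, -0.39 and -0.32 for AttA A_09_P205050 with 75th percentile scaling, normexp, slide and scan batch as fixed blocks, and to 0.13 for AttD with normexp. With an array left out, c564>nub-RB minus c564>Pdm2-RB ranged from -0.17 to 1.71 for AttD in rest, and in gut from -0.80 to 1.02, -0.84 to 1.08 and -0.83 to 1.19 for the AttA probes, -1.35 to 0.52 for AttB and -1.66 to 0.87 for AttC. AttB in c564>Pdm2-RB gut minus rest ranged from -1.70 to 0.34, AttC in c564>+ gut minus rest from -0.41 to 0.01, and the c564>Pdm2-RB interaction from -1.15 to 0.68, -1.32 to 0.60 and -0.89 to 1.13 for AttA, -1.29 to 0.75 for AttB and -2.28 to 0.24 for AttC. Across the values of single probes, 698 alternatives kept direction and side of the threshold, 43 passed it, 39 missed it and 12 changed sign.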
